A study of Mus musculus with 4 samples.

Results

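The genes described here encode enzymes that dispose of electrophiles, ketones and aldehydes, namely the glutathione transferases, the carbonyl reductases, the aldo-keto reductases and the aldehyde dehydrogenases. They were chosen by symbol (Gst genes of the alpha, kappa, mu, omega, pi, theta and zeta classes, Akr genes, Cbr1 to Cbr4 and Aldh genes), without the retinal dehydrogenase genes Aldh1a1, Aldh1a2 and Aldh1a3 and the progesterone-inactivating Akr1c18. The rule found 61 of the 54152 genes in the deposited table, comprising 23 glutathione transferases, 4 carbonyl reductases, 16 aldo-keto reductases and 18 aldehyde dehydrogenases. The RNA came from C57 mice at day 4 of pregnancy, as whole uteri, with 2 libraries of the P38α dd genotype and 2 of the P38α ff genotype. The series title contrasts knockout with wild-type mice, and the question is which transcripts differ without p38α, a stress-responsive protein kinase whose gene is Mapk14. The labels name no Cre driver, no deleted exon and no pooling, and they do not say whether the libraries of a group came from separate animals. The p-values therefore measure only the spread between these samples.

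The libraries held between 24619850 and 32451670 counts. Mapk14 had 2481 and 3429 counts in the dd libraries, against 3074 and 2710 counts in the ff libraries, and its log2 change was 0.28 (SE 0.0897, edgeR adjusted p = 0.12). A total over all exons does not show whether a few are missing, so every direction given here rests on the labels dd and ff. Each listed marker of epithelium, stroma, endothelium, smooth muscle, macrophages and mesothelium had counts. The 12 epithelial markers summed to 3549 and 4187 CPM in dd, against 1513 and 1756 CPM in ff, where CPM is a count scaled to a common library size with TMM factors, and 7 of them were called higher and 0 lower (10 and 0 with DESeq2, and 10 and 0 by unadjusted p). The stromal markers summed to 12129 and 8887 CPM in dd, against 17433 and 15431 CPM in ff. Of these 12, 0 were called higher and 5 lower (0 and 6 with DESeq2, and 0 and 6 by unadjusted p). Of 10 endothelial markers 9 were lower, with sums of 790.1 and 777.7 CPM in dd, against 1582 and 1404 CPM in ff. Of all tested genes edgeR called 4.52% higher and 3.86% lower. DESeq2 called 7.81% higher and 6.91% lower, and by unadjusted p 14.9% were higher and 14.4% lower. Of 5 tested red cell markers 4 were higher. The other, Hba-a2, had 2.16 and 0.132 CPM in dd, against 6.16 and 7.48 CPM in ff, and did not pass (log2 change −2.62). Of 8 smooth muscle and 5 mesothelial markers edgeR called 0, while DESeq2 called 0 of the smooth muscle markers and 1 mesothelial marker in each direction, the same numbers as by unadjusted p. Both lists differed between the dd libraries. Smooth muscle markers summed to 11323 and 6438 CPM in dd, against 8249 and 7015 CPM in ff. Mesothelial markers summed to 238.7 and 158.9 CPM in dd, against 239.3 and 241.9 CPM in ff. Star of 2 tested ovarian and Cfd of 2 tested fat markers were higher, and Cyp19a1, Hsd3b1, Fshr and Lep of those lists were at 0 in all libraries. In whole tissue, fewer cells of a type and less RNA per cell cannot be told apart.

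Glutathione transferases join the tripeptide glutathione to reactive compounds, which are then exported or broken down, and some also reduce lipid peroxides. Carbonyl and aldo-keto reductases turn ketones and aldehydes into alcohols with NADPH, and aldehyde dehydrogenases oxidise aldehydes to acids. Several of these genes are known targets of the transcription factor Nrf2 (Nfe2l2), which binds antioxidant response elements. Substrates of these enzymes include lipid peroxidation products, prostaglandins and steroids.

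Of the 61 genes, 54 passed the filter on low counts and were tested. A single member, Cbr2, was called at an adjusted p under 0.05, where 8.39% of all 18530 tested genes were called, and it was higher in dd. That is 1.85% of the tested members, against 4.52% of all tested genes called higher. With edgeR 0 members were called lower, where 3.86% of all tested genes were. By unadjusted p, 20 members were higher (37.0%, against 14.9% of all tested genes) and 5 lower (9.26%, against 14.4%). DESeq2 called 12 members higher, where it called 7.81% of all genes, and 1 lower, where it called 6.91%.

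The log2 change was above 0 for 39 of 54 members, against 50.3% of all tested genes, and its median was 0.42 over the tested members and 0.0022 over all tested genes. The values of both dd libraries lay above both ff libraries for 33 members, against 31.6% of all tested genes. They lay below for 9 members, against 31.3% of all tested genes, and overlapped for 12. With a log2 change of at least 1 and 1 CPM in the higher group, 13 members were above, where 5.6% of all tested genes met this rule, and 1 was below, where 4.41% did. In the authors' deposited table the unadjusted p is under 0.05 for 14 tested members with a fold above 1, against 7.14% of all tested genes, and for 2 with a fold below 1, against 6.04%. These counts describe the tested genes and do not stand for the 61, since a gene high in 1 group alone can pass the filter through that group.

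**Figure D1:**
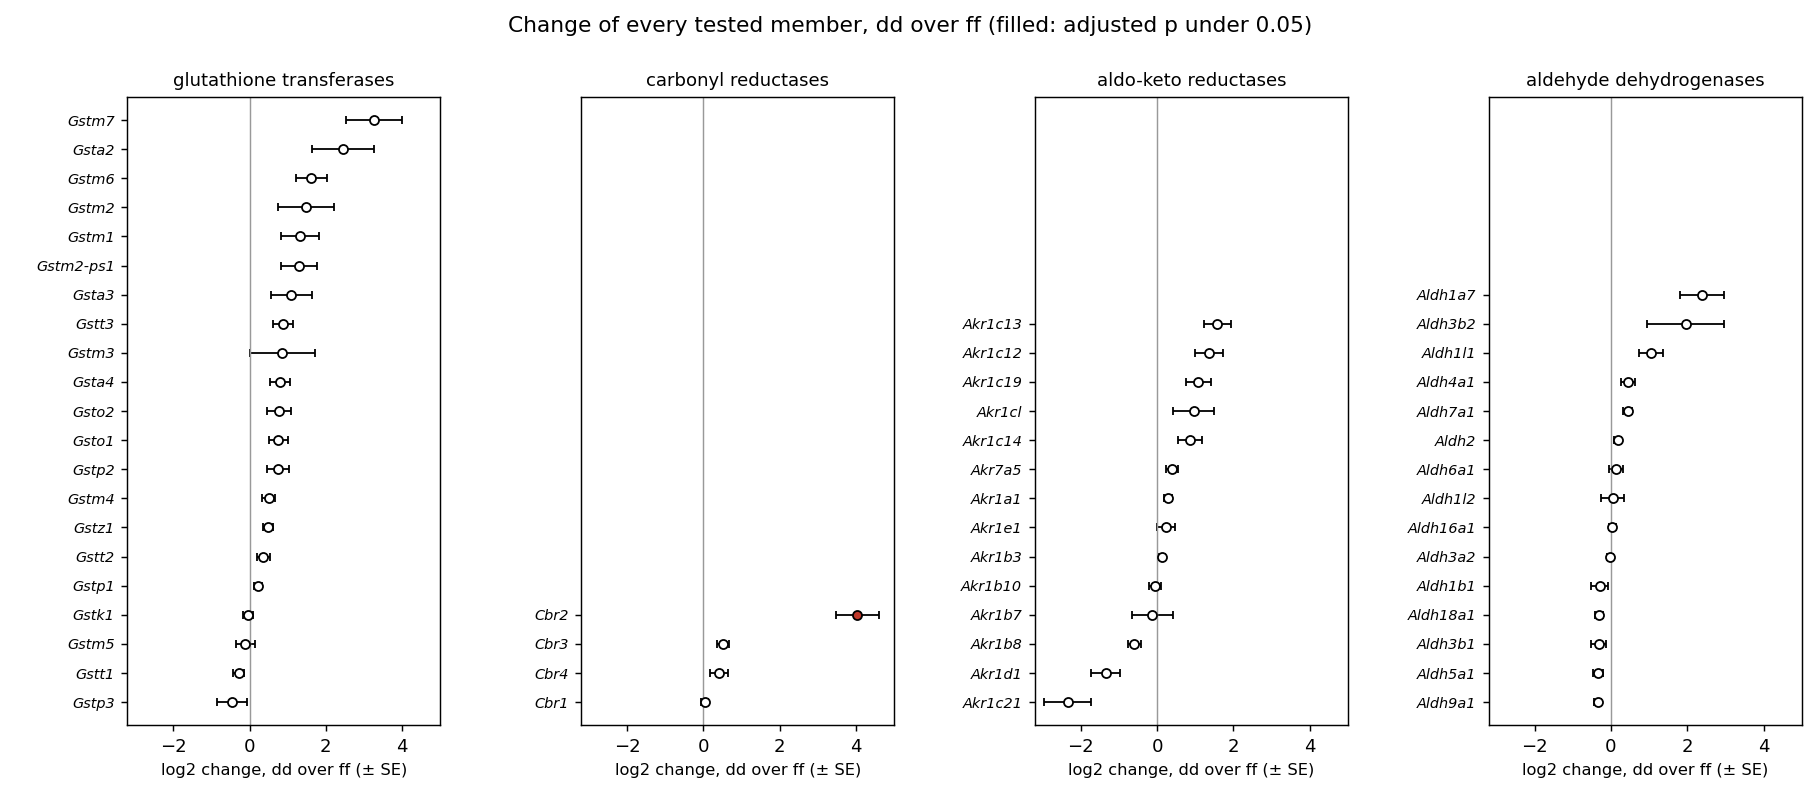
Log2 change of dd over ff (x axis) with its standard error for each of the 54 tested members, in 4 panels by enzyme class. The filled point marks the gene with an adjusted p under 0.05, Cbr2, and open points are genes that did not pass.

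Among the carbonyl reductases, Cbr2 stood apart. Cbr2 encodes a carbonyl reductase known from mouse lung, where it is abundant, and lies on chromosome 11 (120729489 to 120732114, minus strand, mm10). It had 23774 and 20600 counts in dd, against 901 and 2363 counts in ff. Scaled for depth this was 1006 and 680.0 CPM in dd, against 27.1 and 75.9 CPM in ff. Both dd libraries were far above both ff libraries, and CPM in ff replicate 2 was 2.8 times that in ff replicate 1. The means were 843.1 ± 230.6 CPM in dd and 51.5 ± 34.5 CPM in ff (SD, n = 2 each), a fold of 16.4 (log2 change 4.03, SE 0.569, adjusted p = 0.0288, edgeR's quasi-likelihood test). The fold in the authors' deposited table is 16.4, with a p of 7.71e-15 before adjustment. With single libraries left out, the log2 change was 3.73 without dd replicate 1 (adjusted p = 0.0574) and 4.29 without dd replicate 2 (adjusted p = 0.056). It was 3.47 without ff replicate 1 (adjusted p = 0.0504). Leaving out ff replicate 2 gave 4.96 (adjusted p = 0.0137). The call was lost in 3 of these 4 fits, while the direction was the same in each.

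Sharing of sequence was measured for each member, because no source used here says how reads that match several genes were handled. Of the distinct 50-base stretches in annotated Cbr2 transcripts, 12.1% also occur in the pseudogene Gm11771 on chromosome 11 (120765310 to 120767365). Gm11771 had 5 and 6 counts in dd, against 3 and 1 counts in ff, so few reads were assigned to it. Markers of other cell types moved beside Cbr2. Ovgp1, the oviduct glycoprotein gene, had 2878 and 3776 counts in dd, against 898 and 775 counts in ff, and Foxj1, the regulator of motile cilia, had 47 and 99 counts in dd, against 23 and 23 counts in ff. Of 5 tested oviduct and ciliated cell markers these 2 were higher and 0 lower. The list of 7 summed to 147.2 and 153.2 CPM in dd, against 50.5 and 52.2 CPM in ff, of which Ovgp1 alone gave 121.8 and 124.7 CPM in dd, against 26.98 and 24.9 CPM in ff. The other tested cilia genes did not pass, with log2 changes of 0.36 for Dnah5, −0.06 for Tekt1 and −0.17 for Ccdc39. The untested Dynlrb2 had 1 and 1 counts in dd, against 2 and 6 counts in ff and Spag6l 5 and 3 counts in dd, against 4 and 3 counts in ff. Of 8 macrophage markers 0 were higher and 4 lower (0 and 5 with DESeq2, and 0 and 6 by unadjusted p). Their sums were 170.0 and 164.2 CPM in dd, against 278.2 and 298.5 CPM in ff. Of all tested genes 4.52% were called higher and 3.86% lower. The part of any cell type in the Cbr2 difference was not tested.

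Promoters are shown for the 4 tested members with the largest log2 changes, Cbr2, Gstm7, Gsta2 and Aldh1a7, so that their start regions can be compared. Each runs from 250 bases before to 50 after a transcript start, 5′ to 3′ on the gene's strand, from RefSeq on GRCm38.p6. Capitals mark a match to the core of the antioxidant response element. Gstm7 has 2 annotated starts, and the window of the downstream one is given because it holds the single match among the windows of these genes.
Cbr2 promoter, chr11:120731972-120732271, minus strand: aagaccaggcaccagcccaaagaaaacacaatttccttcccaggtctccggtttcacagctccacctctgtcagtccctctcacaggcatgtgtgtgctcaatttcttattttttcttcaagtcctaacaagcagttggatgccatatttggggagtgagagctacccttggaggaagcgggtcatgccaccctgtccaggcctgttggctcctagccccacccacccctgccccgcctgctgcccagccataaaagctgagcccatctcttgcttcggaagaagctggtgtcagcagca
Gstm7 promoter, chr3:107931565-107931864, minus strand: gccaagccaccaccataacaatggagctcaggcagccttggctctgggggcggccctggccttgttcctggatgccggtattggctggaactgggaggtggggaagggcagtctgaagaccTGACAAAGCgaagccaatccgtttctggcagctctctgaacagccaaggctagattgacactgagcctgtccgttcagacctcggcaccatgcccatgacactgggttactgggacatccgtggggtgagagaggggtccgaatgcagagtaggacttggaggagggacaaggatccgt
Gsta2 promoter, chr9:78347096-78347395, minus strand: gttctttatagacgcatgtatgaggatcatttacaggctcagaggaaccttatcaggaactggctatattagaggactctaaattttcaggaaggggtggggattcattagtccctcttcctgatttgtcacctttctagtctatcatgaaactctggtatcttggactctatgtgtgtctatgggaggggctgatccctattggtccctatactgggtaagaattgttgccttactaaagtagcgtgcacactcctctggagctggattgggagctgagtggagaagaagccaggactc
Aldh1a7 promoter, chr19:20727507-20727806, minus strand: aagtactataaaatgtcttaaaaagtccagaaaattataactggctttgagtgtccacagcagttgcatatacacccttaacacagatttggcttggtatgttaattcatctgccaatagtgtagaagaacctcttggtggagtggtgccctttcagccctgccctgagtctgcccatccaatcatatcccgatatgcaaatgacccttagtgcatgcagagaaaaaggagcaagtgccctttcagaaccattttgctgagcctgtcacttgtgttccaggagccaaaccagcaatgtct
Of the 61 members 51 had a promoter entry, with 60 windows in all. The element core was searched as TGACNNNGC and the AP-1 site as TGANTCA, both on both strands, and stretches that match both count for each. The element core occurred in 6 of the 60 windows (10%), those of Gstm7, Gstm5, Gsta3, Akr1c19, Akr1cl and Aldh9a1, against 12.4% of all 32851 windows. In the Gstm7 window it read TGACAAAGC at position −129 from the downstream start. That position lies inside the annotated gene (107926334 to 107931817, minus strand), after the upstream start. The window of the upstream start held no match. The AP-1 site occurred in 3 of 60 windows (5.0%), those of Gstm5, Gstp1 and Gstp2, against 7.81% of all windows. The palindromic estrogen response element occurred in 0 of 60 windows, against 0.07% of all windows. A match describes letters in this window and is not evidence of binding, and sequence farther away was not searched.

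The other carbonyl reductases had log2 changes between 0.04 and 0.51. Cbr1 and Cbr3 encode cytosolic enzymes and Cbr4 a mitochondrial one. Cbr1 had 46.5 and 46.2 CPM in dd, against 43.4 and 46.97 CPM in ff, so its groups overlapped. Cbr3 had 25.6 and 32.2 CPM in dd, against 21.1 and 19.5 CPM in ff, without overlap (log2 change 0.51, SE 0.151, adjusted p = 0.106). Cbr4 had 22.7 and 21.1 CPM in dd, against 13.04 and 20.00 CPM in ff, also without overlap (log2 change 0.41, SE 0.229, adjusted p = 0.302), and neither gene passed.

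**Figure D2:**
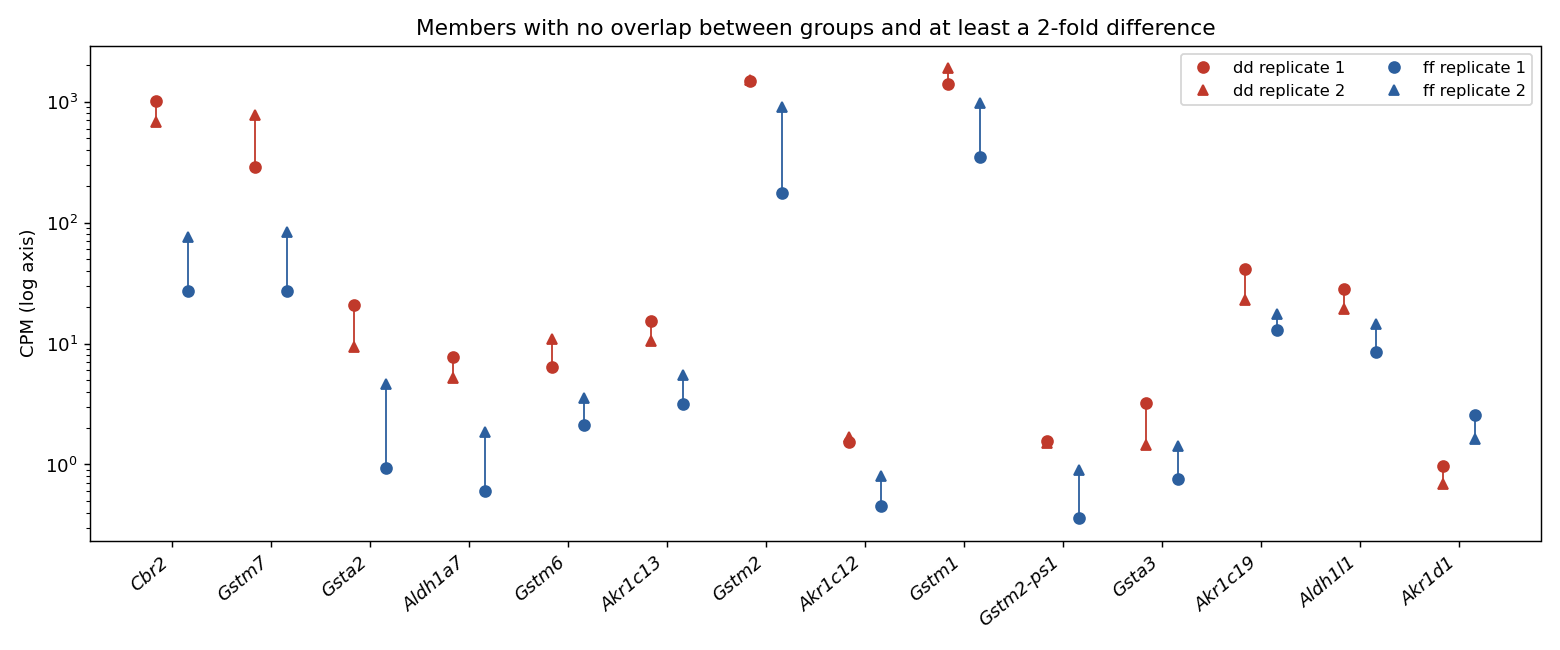
CPM on a log axis in each library for the 14 members whose groups did not overlap, differed by a log2 change of at least 1 in either direction and reached a mean of 1 CPM in the higher group, ordered by log2 change. Red symbols are dd and blue symbols ff libraries, circles replicate 1 and triangles replicate 2, with a line joining the libraries of a group. Cbr2 has the widest gap, and of the 14 genes shown Akr1d1 is the one lower in dd; Akr1c21 and Aldh3b2 did not reach 1 CPM and are not shown.

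The mu class transferases act on epoxides and other electrophiles, and 7 of their 8 tested genes form a cluster on chromosome 3 that runs from Gstm5 (107895821 to 107898686) to Gstm4 (108040408 to 108044894). None of the 8 passed edgeR's test. By unadjusted p Gstm1, Gstm2-ps1, Gstm4, Gstm6 and Gstm7 were higher, as were 14.9% of all tested genes. DESeq2 called Gstm6 and Gstm7 higher, where it called 7.81% of all genes. Gstm7 had 290.7 and 776.8 CPM in dd, against 26.98 and 84.2 CPM in ff, without overlap. Its dd libraries differed 2.67-fold and its ff libraries 3.12-fold. The fold of dd over ff was 9.61 (log2 change 3.26, SE 0.743, adjusted p = 0.0656), against 9.63 in the authors' deposited table. Its size depended on single libraries, with log2 changes of 3.82 without dd replicate 1, 2.39 without dd replicate 2, 2.67 without ff replicate 1 and 4.30 without ff replicate 2, none of which passed. Gstm7 shares 0.532% of its 50-base stretches with other genes.

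Gstm1 and Gstm2 had the highest FPKM of all members in both dd libraries and in ff replicate 2, while in ff replicate 1 Gsto1 was above both and Akr1a1 above Gstm2. Gstm1 had 950.6 and 1286 FPKM in dd, against 235.0 and 659.7 FPKM in ff, where FPKM are the authors' values scaled for transcript length and depth. Gstm2 had 875.9 and 913.1 FPKM in dd, against 105.4 and 533.0 FPKM in ff. For both genes the dd libraries were above the ff libraries, and ff replicate 1 was far below ff replicate 2. In CPM, ff replicate 2 exceeded ff replicate 1 by 2.82-fold for Gstm1 and 5.07-fold for Gstm2. Neither gene passed, with a log2 change of 1.32 for Gstm1 (adjusted p = 0.169) and 1.49 for Gstm2 (adjusted p = 0.254). Without ff replicate 1 the log2 change was 0.76 for Gstm1 and 0.74 for Gstm2. Without ff replicate 2 both passed, Gstm1 with 2.25 (adjusted p = 0.0265) and Gstm2 with 3.08 (adjusted p = 0.012).

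Along the cluster the difference was uneven. Gstm5, at the outer end beside Gstm7, had 44.6 and 62.5 CPM in dd, against 68.3 and 47.5 CPM in ff, and its groups overlapped (log2 change −0.11). Gstm6, on the other side of Gstm7, had 6.43 and 10.96 CPM in dd, against 2.10 and 3.56 CPM in ff (log2 change 1.62, SE 0.397, adjusted p = 0.0754). Gstm3 was near the detection limit, with 6 and 16 counts in dd, against 2 and 12 counts in ff. Gstm4 at the far end had 17.9 and 16.2 CPM in dd, against 10.6 and 13.5 CPM in ff (log2 change 0.50, SE 0.176, adjusted p = 0.146). The 7 genes of the cluster ranged in log2 change from −0.11 to 3.26, and the differences between genes were not tested. Gstm2-ps1, a processed pseudogene on chromosome 5 (116632908 to 116633564), had 37 and 46 counts in dd, against 12 and 28 counts in ff. Of its 50-base stretches 46.9% occur in other genes, chiefly Gstm1. Of those of Gstm1 18.9% occur in other genes, chiefly Gstm2-ps1, so the split of reads between these genes is uncertain.

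**Figure D3:**
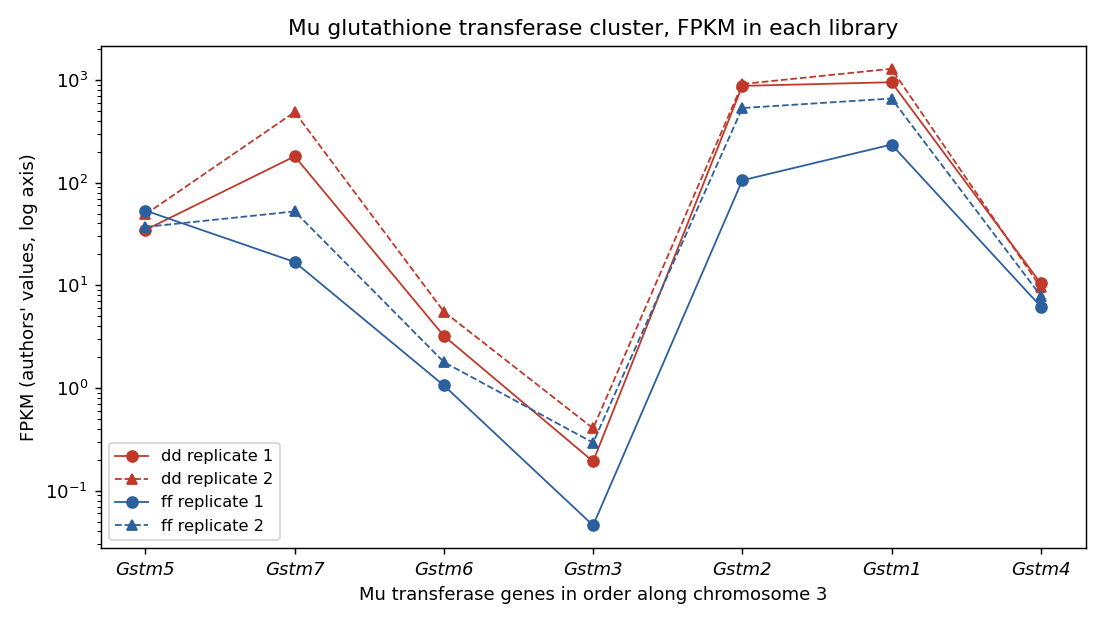
FPKM on a log axis in each library for the 7 mu transferase genes in their order along chromosome 3, lowest coordinate at the left; lines only join the genes of a library. The dd libraries (red) lie above the ff libraries (blue) at Gstm7, Gstm6, Gstm2, Gstm1 and Gstm4 and overlap with them at Gstm5 and Gstm3.

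Several further members differed between the ff libraries. CPM in ff replicate 2 was at least 2-fold that of ff replicate 1 for 8 of 54 tested members, against 3.55% of all tested genes. These were Cbr2, Gsta2, Gstm1, Gstm2, Gstm2-ps1, Gstm3, Gstm7 and Aldh1a7. The reverse held for 0 members, against 2.61% of all tested genes. The epithelial marker sum was 1.16-fold higher in ff replicate 2 than in ff replicate 1, with 7 of 12 markers higher. Between the dd libraries, 3 members were at least 2-fold higher in dd replicate 2 (Akr1c21, Gstm3 and Gstm7), against 3.22% of all tested genes. In dd replicate 1, 3 members were at least 2-fold higher (Akr1b7, Gsta2 and Gsta3), against 3.86% of all tested genes.

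Leaving out single libraries moved the members' calls. Without ff replicate 2, 6 members were called higher (Aldh1a7, Cbr2, Gsta2, Gstm1, Gstm2 and Gstt3), and 0 were called in the other 3 fits. The shares of all genes called in these fits were 1.99% higher and 1.12% lower without dd replicate 1, and 1.17% higher and 0.635% lower without dd replicate 2. They were 0.321% higher and 0.145% lower without ff replicate 1, and 3.73% higher and 2.43% lower without ff replicate 2. With the replicate number as a block, Cbr2, Gsta4, Gstm1, Gstm6, Gstm7 and Gsto1 were called higher, where the shares of all genes were 4.74% higher and 3.52% lower. Without a filter on low counts 14 members were called higher and 2 lower, where the shares of all genes were 4.99% higher and 4.29% lower.

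Under 6 further settings Cbr2 was the one member called higher and 0 were called lower. Of all tested genes these settings called 4.51% higher and 3.86% lower (DESeq2 size factors), 4.04% higher and 4.48% lower (upper quartile factors) and 4.05% higher and 5.5% lower (library size alone). They called 4.79% higher and 4.62% lower with a filter of 1 CPM in 2 libraries, 4.42% higher and 3.75% lower with limma-voom, and 3.7% higher and 2.95% lower with limma-trend on log2(FPKM + 0.5).

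**Figure D4:**
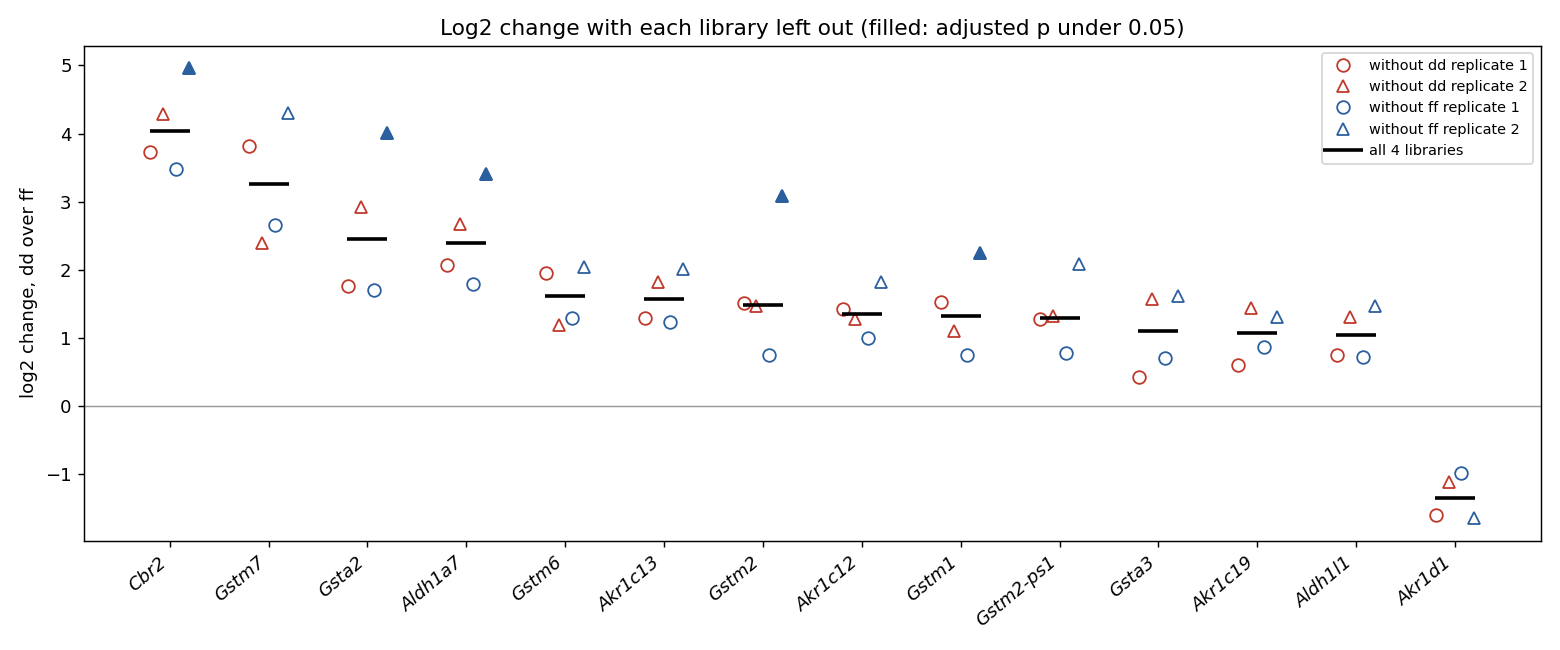
Log2 change of dd over ff for the 14 members of the CPM plot with all libraries (bar) and with each library left out in turn (symbols, filled where the adjusted p was under 0.05). Filled symbols occur only without ff replicate 2, for Cbr2, Gsta2, Aldh1a7, Gstm2 and Gstm1; no symbol crosses 0.

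Alpha class transferases also reduce lipid hydroperoxides. Their 3 tested genes had higher values in both dd libraries without passing edgeR's test, while DESeq2 called Gsta4 higher (adjusted p = 0.0339). Gsta2 had 20.95 and 9.34 CPM in dd, against 0.931 and 4.62 CPM in ff (log2 change 2.45, SE 0.812, adjusted p = 0.13). Its groups did not overlap, but each spanned a wide range. Its log2 change was 1.71 when ff replicate 1 was left out, and without ff replicate 2 it was 4.01 and passed (adjusted p = 0.0485). Of its 50-base stretches 49.8% occur in other genes, chiefly Gsta1, which itself had 1 and 2 counts in dd, against 0 and 0 counts in ff, and the split of reads between them is uncertain. Gsta4, which conjugates the lipid peroxidation product hydroxynonenal, had 71.99 and 113.8 CPM in dd, against 46.4 and 61.3 CPM in ff, without overlap (log2 change 0.79, SE 0.26, adjusted p = 0.129). Gsta3 had 3.22 and 1.45 CPM in dd, against 0.751 and 1.41 CPM in ff, so dd replicate 2 was barely above ff replicate 2 (log2 change 1.10, SE 0.531, adjusted p = 0.244).

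The omega and pi transferases had log2 changes between −0.46 and 0.77, and none passed edgeR's test. Gsto1, an omega class thiol transferase, was among the 4 members with the highest FPKM in every library, with 502.8 and 684.2 FPKM in dd, against 284.0 and 418.8 FPKM in ff. Its groups did not overlap (log2 change 0.75, SE 0.253, adjusted p = 0.132), and DESeq2 called Gsto1 higher (adjusted p = 0.022). It lies beside Gsto2 on chromosome 19, where both overlap Cfap43 on the opposite strand. Gsto2 was scarce, with 1.40 and 1.42 CPM in dd, against 0.691 and 0.963 CPM in ff. Gstp1, the main pi class enzyme, had 119.1 and 110.7 FPKM in dd, against 96.5 and 100.6 FPKM in ff, without overlap (log2 change 0.22, SE 0.0932, adjusted p = 0.196). It shares 33.7% of its 50-base stretches with Gstp2, which had 4.23 and 3.27 CPM in dd, against 1.89 and 2.60 CPM in ff, so the split of reads between these genes is uncertain. Gstp3 overlapped between groups, with 2.37 and 1.25 CPM in dd, against 2.85 and 2.09 CPM in ff.

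Theta transferases lie together on chromosome 10, where Gstt3 and its neighbour Gstt1 pointed in opposite directions. Gstt3 had 29.3 and 28.2 CPM in dd, against 11.6 and 19.8 CPM in ff (log2 change 0.87, SE 0.267, adjusted p = 0.112), and DESeq2 called it higher. Gstt1 had 23.7 and 19.5 CPM in dd, against 24.7 and 27.6 CPM in ff (log2 change −0.28, SE 0.146, adjusted p = 0.273). Neither passed with edgeR, and Gstt2 had 25.8 and 23.5 CPM in dd, against 16.3 and 22.1 CPM in ff. Gstz1, an isomerase of tyrosine breakdown, had 101.8 and 88.8 CPM in dd, against 60.7 and 75.7 CPM in ff, without overlap (log2 change 0.48, SE 0.143, adjusted p = 0.106). Gstk1, a transferase of mitochondria and peroxisomes, had 27.5 and 26.2 CPM in dd, against 25.2 and 30.1 CPM in ff, and its groups overlapped.

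Summed over all 61 members, FPKM came to 4147 and 4758 in the dd libraries, against 1383 and 2472 in the ff libraries. Transferases made up most of this pool, with 2829 and 3713 FPKM in dd, against 894.0 and 1934 FPKM in ff. Cbr2 alone took 18.2% and 10.8% in dd, against 1.48% and 2.31% in ff. Akr1a1, whose own FPKM varied far less, took 4.78% and 3.99% in dd, against 11.6% and 6.4% in ff. By FPKM the leading genes were Gstm1, Gstm2 and Cbr2 in dd replicate 1, and Gstm1, Gstm2 and Gsto1 in dd replicate 2. The first 3 in ff replicate 2 were the same as in dd replicate 2, and in ff replicate 1 they were Gsto1, Gstm1 and Akr1a1. The aldehyde dehydrogenases together summed to 214.8 and 201.8 FPKM in dd, against 189.8 and 198.1 FPKM in ff, a much narrower range.

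**Figure D5:**
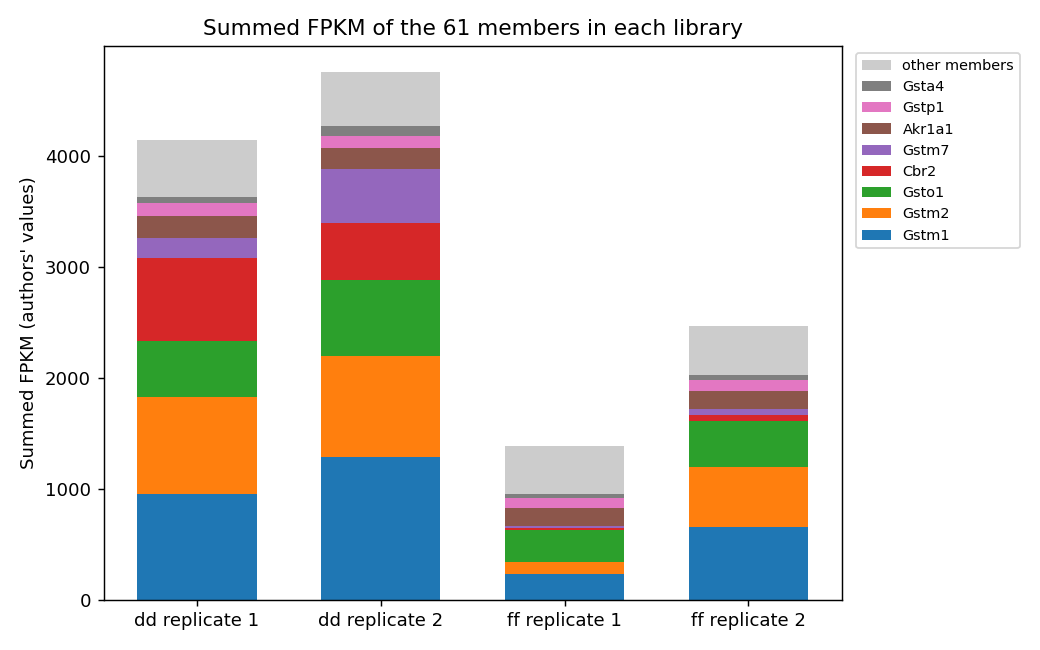
Summed FPKM (the authors' values, linear axis from 0) of the 61 members in each library, dd at the left and ff at the right, split into the 8 members with the highest mean and all others. The sums are 4147 and 4758 in dd and 1383 and 2472 in ff, and the Cbr2 and Gstm7 segments are larger in both dd libraries.

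Aldo-keto reductases of the Akr1c group, many of which act on steroid hydroxyl and keto groups, lie together on chromosome 13. Akr1c13 had 15.2 and 10.5 CPM in dd, against 3.15 and 5.46 CPM in ff (log2 change 1.58, SE 0.349, adjusted p = 0.0626). Akr1c19 had 41.4 and 23.04 CPM in dd, against 12.9 and 17.6 CPM in ff (log2 change 1.08, SE 0.326, adjusted p = 0.11). Akr1c14 had 54.6 and 29.9 CPM in dd, against 20.7 and 25.7 CPM in ff (log2 change 0.87, SE 0.31, adjusted p = 0.15). For each of these the dd libraries lay above the ff libraries, and DESeq2 called all 3 higher while edgeR called none. Akr1c12 had 36 and 51 counts in dd, against 15 and 25 counts in ff, and shares 28.6% of its 50-base stretches with Akr1c13. Akr1c21, a hydroxysteroid dehydrogenase gene of the same cluster, had lower values in both dd libraries, with 1 and 4 counts in dd, against 13 and 18 counts in ff (log2 change −2.34, SE 0.614, adjusted p = 0.0849). Akr1c20 had 0 and 0 counts in dd, against 2 and 0 counts in ff, and Akr1c6 had 0 in each library, which allows up to 3 counts, or 0.0901 to 0.127 CPM.

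Outside that group the aldo-keto reductases had log2 changes between −1.35 and 0.96, and none passed. Akr1a1, the aldehyde reductase that also serves ascorbate synthesis in the mouse, had 548.1 and 519.4 CPM in dd, against 442.4 and 436.5 CPM in ff. The groups did not overlap and the libraries of a group were close (log2 change 0.28, SE 0.101, adjusted p = 0.153). Akr1b3, the aldose reductase that makes sorbitol from glucose, had 84.7 and 85.7 CPM in dd, against 79.6 and 76.96 CPM in ff (log2 change 0.12, SE 0.0792, adjusted p = 0.362). Nearby on chromosome 6, Akr1b8 had 23.3 and 19.3 CPM in dd, against 35.96 and 28.6 CPM in ff, without overlap (log2 change −0.60, SE 0.169, adjusted p = 0.0965), and was the one member that DESeq2 called lower. Akr1b10 and Akr1b7 overlapped between groups. Akr1d1, the steroid beta-reductase of bile acid synthesis, had 23 and 21 counts in dd, against 86 and 51 counts in ff (log2 change −1.35, SE 0.375, adjusted p = 0.0944), or under 1 CPM in both dd libraries and above it in both ff libraries. Akr7a5, an aflatoxin aldehyde reductase, had 40.97 and 51.8 CPM in dd, against 32.1 and 38.4 CPM in ff, without overlap, and Akr1e1 overlapped between groups, as did Akr1cl, which was under 1 CPM in each library.

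The aldehyde dehydrogenases had the lowest median log2 change of the 4 classes, 0.04 over 15 tested genes, 9 of them above 0. Aldh1a7, a close relative of the retinal dehydrogenase gene Aldh1a1 near which it lies on chromosome 19, had 7.79 and 5.15 CPM in dd, against 0.601 and 1.86 CPM in ff, without overlap (log2 change 2.39, SE 0.577, adjusted p = 0.0735). Leaving out ff replicate 1 gave a log2 change of 1.79, and leaving out ff replicate 2 gave 3.41, which passed (adjusted p = 0.034). Aldh1a7 shares 7.49% of its 50-base stretches with Aldh1a1, which had 602 and 1909 counts in dd, against 294 and 386 counts in ff. Aldh1l1, a folate enzyme, had 28.4 and 19.4 CPM in dd, against 8.56 and 14.5 CPM in ff (log2 change 1.05, SE 0.324, adjusted p = 0.114), and DESeq2 called it and Aldh1a7 higher. Aldh3b2 was scarce, with 11 and 16 counts in dd, against 0 and 8 counts in ff.

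The mitochondrial members of amino acid and alcohol metabolism lay closer together. Aldh2, which clears acetaldehyde, had 279.6 and 270.4 CPM in dd, against 234.5 and 251.9 CPM in ff (log2 change 0.18, SE 0.0964, adjusted p = 0.289). Aldh7a1, of lysine breakdown, had 248.8 and 246.6 CPM in dd, against 166.5 and 198.4 CPM in ff (log2 change 0.44, SE 0.119, adjusted p = 0.0886), and DESeq2 called it higher. Opposed enzymes of proline metabolism differed in direction. Aldh4a1, of proline breakdown, had 47.7 and 34.1 CPM in dd, against 28.8 and 30.9 CPM in ff (log2 change 0.45, SE 0.181, adjusted p = 0.181). Aldh18a1, of proline synthesis, had 88.1 and 81.9 CPM in dd, against 111.3 and 99.9 CPM in ff (log2 change −0.31, SE 0.0984, adjusted p = 0.117). The groups overlapped for neither gene, neither passed, and the difference between them was not tested.

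Among the remaining dehydrogenases, Aldh9a1, of carnitine synthesis, Aldh5a1, of GABA breakdown, Aldh1b1 and Aldh3b1 had lower values in both dd libraries, with log2 changes from −0.35 to −0.30. Aldh3a2, the fatty aldehyde dehydrogenase gene, had 97.4 and 96.5 CPM in dd, against 102.6 and 94.9 CPM in ff, and overlapped, as did Aldh6a1 and Aldh1l2. Aldh16a1 had a log2 change of 0.04 with TMM that turned negative with upper quartile factors or library size alone, as did Cbr1 and Aldh1l2. Aldh3a1, Aldh3b3, Aldh8a1 and Gstt4 had between 0 and 4 counts in a library and were not tested, like Gsta1, Akr1c6 and Akr1c20.

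Genes that supply and recycle glutathione were compared in the same fit. For this list and those below, the shares of all tested genes by unadjusted p were 14.9% higher and 14.4% lower. DESeq2 called 7.81% of all genes higher and 6.91% lower. Of 19 genes of glutathione synthesis and recycling, 5 rose in dd (26.3%, against 4.52% of all tested genes) and 0 fell, with a median log2 change of 0.23; by unadjusted p 7 were higher and 1 lower, and by DESeq2 6 and 0. Gclc, the catalytic subunit of glutathione's rate-limiting ligase, had 159.2 and 195.1 CPM in dd, against 73.4 and 65.9 CPM in ff (log2 change 1.35, SE 0.135, adjusted p = 0.0201). Its partner subunit Gclm had 61.1 and 52.4 CPM in dd, against 45.7 and 51.1 CPM in ff, and did not pass (log2 change 0.23). Slc7a11, the cystine importer, had 42.3 and 38.5 CPM in dd, against 3.64 and 8.93 CPM in ff (log2 change 2.69, SE 0.429, adjusted p = 0.0344). Ggt1, which breaks down glutathione outside the cell, had 52 and 59 counts in dd, against 17 and 20 counts in ff (log2 change 1.84, adjusted p = 0.0346). G6pdx and Idh1, enzymes that make NADPH, were higher by log2 changes of 0.69 and 0.54. The Idh1 call was close to the threshold (edgeR adjusted p = 0.048). The 5 higher calls of this list were each lost in some fit with a library left out. The glutathione reductase gene Gsr had 73.9 and 73.8 CPM in dd, against 58.1 and 69.2 CPM in ff, and did not pass.

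Of 28 regulators and targets of Nrf2, 5 were called higher (17.9%, against 4.52% of all tested genes) and 1 lower (3.57%, against 3.86%). The list's median log2 change was 0.15, and by unadjusted p as by DESeq2 8 were higher and 1 lower. Of the 5 genes called higher, 3 (Gclc, Slc7a11 and G6pdx) are also in the glutathione list. Ephx1, the microsomal epoxide hydrolase gene, had 69.5 and 68.9 CPM in dd, against 36.6 and 35.2 CPM in ff (log2 change 0.95, adjusted p = 0.0165). The exporter gene Abcc4 had 132.5 and 145.1 CPM in dd, against 68.7 and 71.1 CPM in ff (log2 change 0.99, adjusted p = 0.0177). Hmox1, the heme-degrading enzyme gene, fell in dd, with 11.6 and 11.98 CPM in dd, against 25.6 and 19.4 CPM in ff (log2 change −0.93, adjusted p = 0.0467). This call was close to the threshold and was lost with the replicate block (adjusted p = 0.0541), limma-voom (0.0569) and limma-trend (0.0529). The higher calls and the lower call of this list were each lost in some fit with a library left out. Nqo1, a quinone reductase gene, had 6.90 and 6.998 CPM in dd, against 7.84 and 8.38 CPM in ff, and did not pass (log2 change −0.22). Nfe2l2 itself and its inhibitor Keap1 had log2 changes of 0.13 and 0.15 and did not pass.

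Among 12 tested peroxidase and membrane transferase genes 1 rose (8.33%, against 4.52% of all tested genes) and 1 fell (8.33%, against 3.86%), and the list's median log2 change was −0.43. By unadjusted p 3 were higher and 3 lower, and by DESeq2 1 and 3. Mgst1, a microsomal glutathione transferase, rose, with 151.3 and 123.2 CPM in dd, against 68.3 and 74.3 CPM in ff (log2 change 0.95, adjusted p = 0.0279). Gpx7 fell, with 27.3 and 24.1 CPM in dd, against 38.7 and 39.4 CPM in ff (log2 change −0.60, adjusted p = 0.0414). Gpx3, the secreted peroxidase, had 169.1 and 85.9 CPM in dd, against 346.8 and 277.6 CPM in ff, without overlap, and did not pass (log2 change −1.29). Of 17 thioredoxin, peroxiredoxin and glutaredoxin genes edgeR and DESeq2 called 0, and by unadjusted p 2 were higher and 1 lower. Among 25 other carbonyl and alcohol enzymes, 2 rose (8.0%, against 4.52% of all tested genes) and 0 fell (against 3.86%). By unadjusted p 8 were higher and 3 lower, and by DESeq2 7 and 2. The shares of all genes were 14.9% and 14.4% by unadjusted p, and 7.81% and 6.91% by DESeq2. Adh7, an alcohol dehydrogenase, had 111 and 137 counts in dd, against 17 and 27 counts in ff (log2 change 2.74, adjusted p = 0.0248). Glo1, the glyoxalase that removes methylglyoxal, had 126.0 and 116.7 CPM in dd, against 68.4 and 55.9 CPM in ff (log2 change 0.97, adjusted p = 0.0264).

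Over the 5 lists, 10 of 94 tested genes were higher (10.6%) and 2 lower (2.13%), and 0 of these 12 passed in every fit with 1 library left out. Without ff replicate 1, 1 of the listed genes was called higher and 0 lower. Of all tested genes 4.52% were called higher and 3.86% lower with all 4 libraries. Epithelial markers were higher and stromal markers lower in the same libraries, and their part in the differences of the 5 lists was not tested.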

How the data were processed

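The 4 whole-uterus libraries (2 dd, 2 ff) came as 1 deposited table. TRIzol extraction and TruSeq library construction are recorded per the labels' protocols, and poly-A selection in the series design. STAR, edgeR and the mm10 build are named, without roles, in the submitters' processing notes. The read counter, annotation, read length and strandedness were not given in the sources used here, so a gene cannot be told from a partner on the opposite strand, which 15 of the 61 members overlap. The authors deposited whole-number counts per gene, which were tested. They also deposited rescaled counts, a signal per library that was not tested, FPKM values (called RPKM in the design text), a fold (dd over ff) and, of unstated test, a p-value without adjustment.

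Counts were compared with edgeR 4.0.16 (R 4.3.3): filterByExpr, TMM, glmQLFit and glmQLFTest on 4 libraries without a block, Benjamini-Hochberg adjustment over 18530 genes and a threshold of 0.05. Values are CPM per library or mean ± SD of 2. The biological coefficient of variation was 0.185. Replicates differed by more than sampling noise (chi-square per degree of freedom 32.6 in dd and 32.0 in ff). On simulated counts of this comparison over 18219 genes, 46% of genes raised 2-fold and 100% of genes raised 4-fold were recovered, as were 37.8% of those set to 0.5 and 89.8% of those set to 0.25 of their level, and 6 of 140 calls were unchanged genes. Every simulated gene was given the same biological coefficient of variation, 0.185. The recovered shares therefore may not hold for genes that varied more between replicates. Marker and pathway lists are described by counts and medians. The members and lists were chosen with earlier results of these data known. Genes named were Mapk14, called members, members without overlap between groups that differed by a log2 change of at least 1 with 1 CPM in the higher group, the 8 members with the highest FPKM, called list genes, and Nfe2l2, Keap1, Nqo1, Hmox1, Gclc, Gclm, Gsr and Gpx3. Other members were named to account for all of them, after their values were seen, and the promoters shown beyond Cbr2 were likewise chosen by log2 change. Gene positions are from GENCODE M21 (mm10), where all 61 members matched. Shared sequence was counted as the share of distinct 50-base stretches of a gene's annotated transcripts found in transcripts of another gene on either strand. The alternatives tried were leaving out each library, a replicate block, DESeq2 size factors, upper quartile factors, library size alone, no filter, 1 CPM in 2 libraries, DESeq2 1.42.0, limma-voom and limma-trend on log2(FPKM + 0.5) with limma 3.58.1.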

Additional observations from a re-analysis of the deposited data

How the results depend on the processing

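Cbr2 was the single member called with all 4 libraries, and it was also called with DESeq2 size factors, upper quartile factors, library size alone, the filter of 1 CPM in 2 libraries, limma-voom and limma-trend on log2(FPKM + 0.5). Members called higher numbered 14 without a filter on low counts and 12 with the DESeq2 Wald test, and members called lower 2 and 1; the cause was not tested. With 1 library left out, members called higher ranged from 0 to 6 and members called lower stayed at 0 in each of the 4 fits, which use fewer samples and assume that a lone library varies like the other group. With the replicate block 6 members were called higher (Cbr2, Gsta4, Gstm1, Gstm6, Gstm7 and Gsto1) and 0 lower. The numbers are not known to pair the samples, since the labels state no pairing. Deviations of same-numbered libraries correlated at 0.0087 over 18530 genes, which with 2 libraries per group cannot decide whether samples were paired. In the 5 pathway lists, calls higher numbered 18 without a filter and 19 with DESeq2, and 1 to 11 with 1 library left out. Calls lower numbered 6 without a filter, 6 with DESeq2, 4 with library size alone and 1 with limma-trend, and 0 to 4 with 1 library left out. Over all genes 1584 were higher and 1363 lower without a filter, 1518 and 1342 with DESeq2, 62 to 726 and 28 to 472 with 1 library left out, with the fewest without ff replicate 1. Library size alone gave 751 higher and 1020 lower, against 838 and 716 with TMM. Of 54 tested members 3 changed sign with upper quartile factors or library size alone (Aldh16a1, Aldh1l2 and Cbr1), and 2 to 4 with 1 library left out. Low counts limit Gsta1, Gstt4, Akr1c6, Akr1c20, Aldh3a1, Aldh3b3 and Aldh8a1, since 3 counts correspond to 0.0901 to 0.127 CPM.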
